A study of Mus musculus with 18 samples.

Results

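Eicosanoid synthesis from cytosolic phospholipase A2 was followed through 10 genes in mouse dendritic cells (DCs): Pla2g4a, Ptgs1, Ptgs2, Ptges, Alox5, Alox5ap, Lta4h, Ltc4s, Tbxas1 and Ptger4. They were chosen by name, as the phospholipase, the enzymes of the prostanoid and leukotriene branches and a prostaglandin receptor, and all 10 were among the 29875 genes of the deposited count matrix. The DCs were grown from bone marrow of wild-type C57Bl6/J mice aged 8 to 12 weeks with granulocyte-macrophage colony-stimulating factor from a hybridoma supernatant. On day 8 they received 200 ng/ml of lipopolysaccharide (LPS), a bacterial cell wall component that matures DCs, for 24 hours. They were then placed in collagen matrices of 1.7, 2.6, 3.5 or 4.4 mg/ml, or in the same chambers without collagen, and RNA was taken 5 hours after the chemokine CCL19 was added as a gradient. Every group, the controls included, had thus been exposed to LPS. The 18 libraries fell into 6 groups of 3 numbered biological replicates, and nothing in the sources used here says whether the replicates came from separate mice. The 12 collagen libraries all carried a CCL19 label. Of the 6 suspension libraries, 3 were titled plus CCL19 and 3 no CCL19, but the library names of these groups state the opposite, so titles are used as group names and neither direction of a CCL19 effect can be read from these data.

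Cytosolic phospholipase A2 releases arachidonic acid from membrane phospholipids after calcium brings it to the nuclear and perinuclear membranes, and it is known as a sensor of nuclear envelope stretch in confined cells. Cyclooxygenases turn the released arachidonate into prostaglandin H2, from which terminal synthases make prostaglandin E2, thromboxane and other prostanoids. Alternatively, Alox5 and its partner Alox5ap turn it into leukotriene A4, the precursor of leukotrienes B4 and C4. In DCs, prostaglandin E2 and leukotriene C4 are known to support migration toward CCR7 ligands, of which CCL19 is one. The phospholipase is controlled largely by calcium and phosphorylation, which transcript counts do not measure.

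Library totals ranged from 13062944 to 28059839 counts, so that 3 counts corresponded to 0.0941 to 0.256 CPM, the counts scaled to a common depth of 1000000 counts with TMM factors (trimmed mean of M values). All 10 dendritic cell markers checked, among them Itgax, Flt3, Zbtb46 and Ccr7, were detected, and their summed level was 39450 to 103000 CPM in collagen and 29040 to 92610 CPM in suspension. Libraries that shared a replicate number also shared a date and lane in their names, and Ptgs2, Ptges, Tbxas1 and Alox5 differed widely between the numbers. Xist was counted in all 6 libraries of replicate 1 (380 to 3874 counts) and of replicate 2 (444 to 5027 counts) and was at 0 in the 6 libraries of replicate 3, whereas the study's methods speak of male mice. The libraries that deviated most from a fit of group and replicate were 4.4 mg/ml replicate 2 (residual SD 0.596 on the log2 scale) and 2.6 mg/ml replicate 3 (0.562). Results that turn on either are given with and without it. The members' levels in all 18 libraries are plotted by group and replicate.

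**Figure D1:**
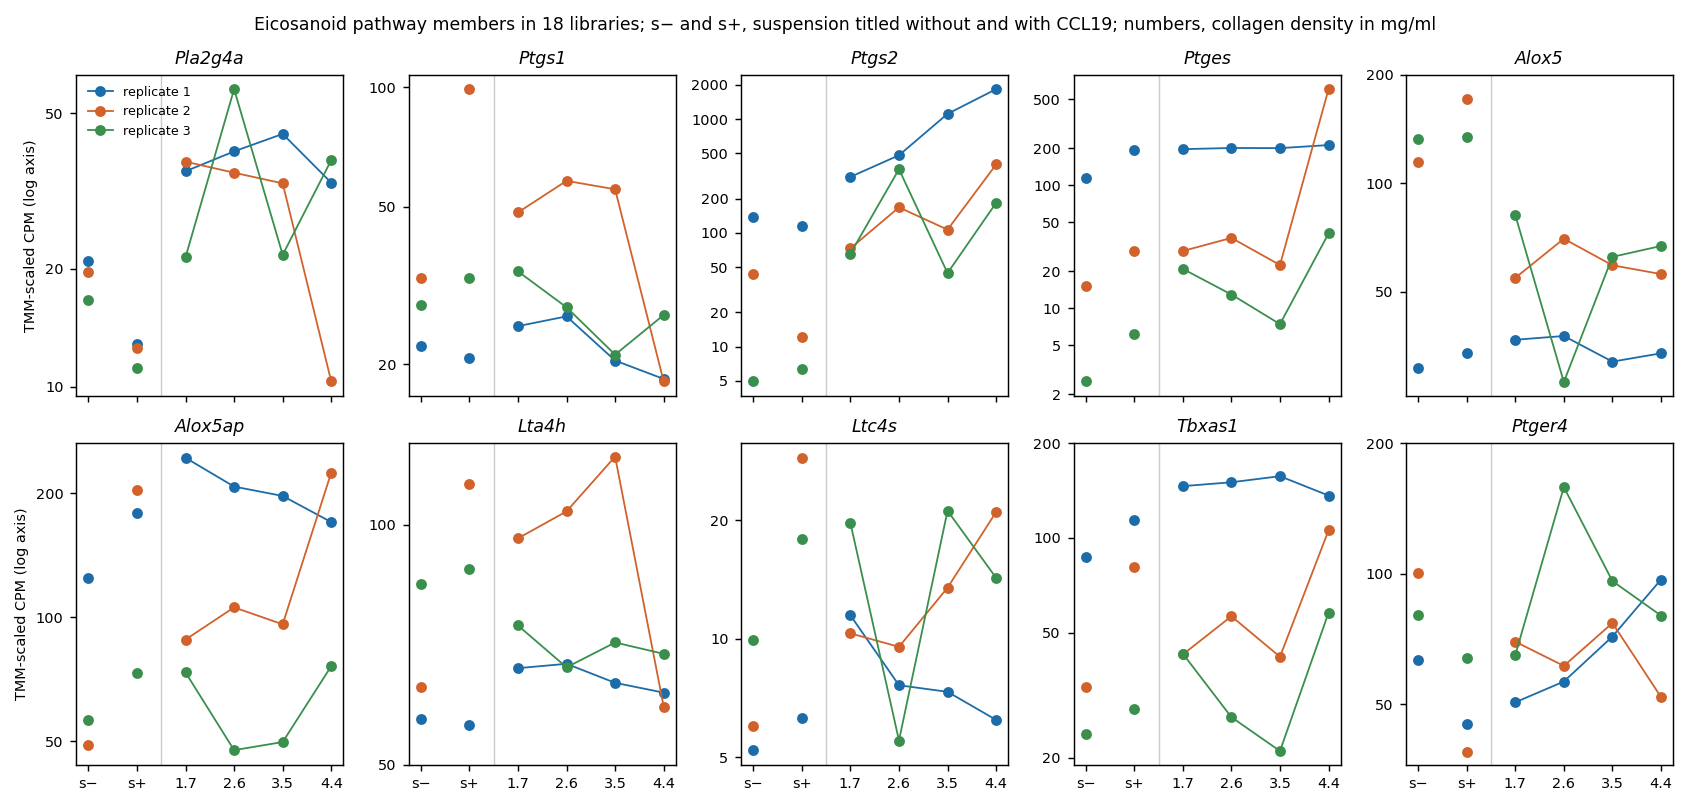
TMM-scaled CPM (log axis) of the 10 members in each of 18 libraries, with the suspension groups titled no CCL19 (s−) and plus CCL19 (s+) at the left of each panel and collagen density in mg/ml at the right. Points are libraries, colors are replicate numbers, and lines join the 4 gels of a replicate. Pla2g4a lies above all suspension libraries in 11 of 12 gels, and Ptgs2 in 8 of 12.

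Pla2g4a and Ptgs2 are neighbors in the genome. On chromosome 1 (GRCm38), Pla2g4a spans 149829618 to 149961290 on the minus strand and Ptgs2 spans 150100031 to 150108227 on the plus strand, so that 138740 bases separate them. The annotation places 3 genes between them, of which 0 are protein-coding. Since both were higher in collagen, the 250 bases upstream of each RefSeq start (GRCm38.p6) are shown for comparison, 5′ to 3′ on the gene's strand, with capitals for the letters of motifs that were searched. The Ptgs2 stretch is chr1:150099781-150100030, plus strand, and that of Pla2g4a is chr1:149961291-149961540, minus strand. The short stretch, chr1:150100036-150100056 on the plus strand, lies just past the Ptgs2 start and holds the core of a cAMP response element, to which CREB and CREM bind. Capitals there mark that core only. The E-box CACGTG, also searched, overlaps the core and is in lower case apart from the shared letters.
Ptgs2 upstream: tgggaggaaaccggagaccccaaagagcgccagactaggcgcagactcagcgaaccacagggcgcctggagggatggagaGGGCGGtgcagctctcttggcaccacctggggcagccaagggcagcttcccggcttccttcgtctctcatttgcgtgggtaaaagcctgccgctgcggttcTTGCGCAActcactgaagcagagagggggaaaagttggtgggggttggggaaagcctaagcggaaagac
Ptgs2 past the start: caccactaCGTCAcgtggagt
Pla2g4a upstream: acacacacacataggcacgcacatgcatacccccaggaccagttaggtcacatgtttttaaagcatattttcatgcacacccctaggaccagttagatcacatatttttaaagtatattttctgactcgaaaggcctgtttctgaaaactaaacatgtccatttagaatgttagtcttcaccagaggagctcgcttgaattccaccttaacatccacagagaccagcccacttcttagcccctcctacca

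These windows differ in the letters they hold. Motifs were searched on both strands of 32851 RefSeq windows of 300 bases, 250 before and 50 after the start, in which 9 of 10 members were matched, and Alox5ap was not. The C/EBP palindrome TTGCGCAA was found in 0.183% of all windows and, among the members, in 1 of 9, at -69 to -62 of Ptgs2. The cAMP response element core CGTCA was in 20.8% of windows and in 1 of 9 members, at 13 to 17 of Ptgs2, where it overlaps an E-box CACGTG, held by 7.15% of windows. The GC box GGGCGG was in 35.7% of windows and in 4 of 9 members (Alox5, Ptger4, Ptges and Ptgs2). The CCAAT box was in 37.4% of windows and in Lta4h, Ptger4 and a second annotated start of Pla2g4a, and the AP-1 motif TGACTCA was in 5.2% of windows and in 0 of 9 members. The upstream stretch of Pla2g4a printed above held none of these letters. A match describes letters and is not evidence of binding.

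Comparing all gels with suspension asks which transcripts differed between DCs in a matrix and DCs in the same chambers without collagen. All 12 gels carried a CCL19 label, whereas 3 of the 6 suspension libraries were titled no CCL19. The comparison therefore mixes matrix with CCL19 exposure, and their separate parts were not tested. In this comparison 3 of 10 members changed: Pla2g4a and Ptgs2 were higher in collagen and Alox5 was lower, at a false discovery rate (FDR) under 0.1 in edgeR's quasi-likelihood test, adjusted over the 13844 genes tested. Of all genes tested, 20.2% were called, 7.78% as higher and 12.4% as lower. The members' median log2 fold change was 0.28, against 0.00 over all genes. With the replicate number as a block, 4 of 10 members were called, with Ptges added as higher, against 34.8% of all genes (15.6% higher and 19.3% lower). In bulk RNA, fewer cells of a type and less RNA per cell cannot be told apart. The fold changes with and without the block are plotted with their standard errors.

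**Figure D2:**
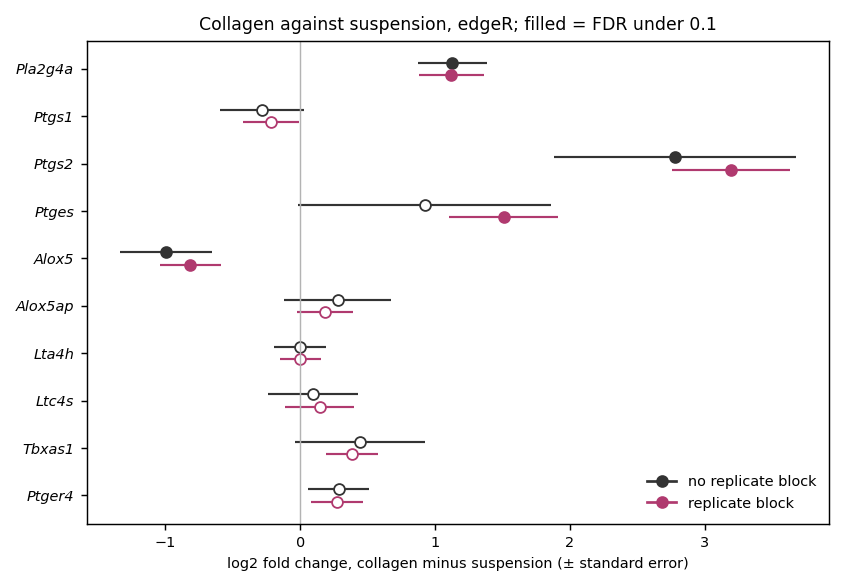
Log2 fold change of each member, mean of the 4 collagen groups minus mean of the 2 suspension groups, with standard errors, without (dark) and with (magenta) the replicate block. Filled points have an FDR under 0.1: Pla2g4a, Ptgs2 and Alox5 in both fits, and Ptges with the block, at 1.51.

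Pla2g4a encodes cytosolic phospholipase A2 alpha, the enzyme that feeds both branches. Its level was 21.02, 19.7 and 16.6 CPM in replicates 1, 2 and 3 of the suspension group titled no CCL19, and 12.9, 12.6 and 11.2 CPM in the group titled plus CCL19. In collagen it was 35.5, 37.6 and 21.4 CPM at 1.7 mg/ml, 39.9, 35.2 and 57.5 CPM at 2.6 mg/ml, 44.2, 33.1 and 21.7 CPM at 3.5 mg/ml, and 33.2, 10.3 and 37.9 CPM at 4.4 mg/ml. Thus 11 of 12 gels lay above every suspension library, and the remaining gel, 4.4 mg/ml replicate 2, lay below every one. The log2 fold change of collagen over suspension was 1.13 ± 0.26 (SE, n = 12 and 6, edgeR FDR = 0.00927), and within replicates 1, 2 and 3 it was 1.2, 0.72 and 1.21. Without 4.4 mg/ml replicate 2 it was 1.23 (FDR = 0.00134). Pla2g4a kept its call under each of 14 other settings, with values from 1.03 to 1.26. The suspension groups did not overlap in Pla2g4a. The group titled plus CCL19 differed from that titled no CCL19 by -0.65 ± 0.40 on the log2 scale (SE, edgeR unadjusted p = 0.126, FDR = 0.761).

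A slope of Pla2g4a with collagen density did not pass the test. Against suspension its log2 fold change was 1.04 ± 0.33 (SE, edgeR FDR = 0.454) at 1.7 mg/ml, 1.53 ± 0.33 (FDR = 0.0249) at 2.6 mg/ml, 1.11 ± 0.33 (FDR = 0.093) at 3.5 mg/ml and 0.83 ± 0.34 (FDR = 0.131) at 4.4 mg/ml. The last value passed with the replicate block (0.80, FDR = 0.0776) and without 4.4 mg/ml replicate 2 (1.216, FDR = 0.0222). Across the 4 densities the slope was -0.12 ± 0.14 per mg/ml (edgeR FDR = 0.982), and without that library it was 0.01. The 4 comparisons share the suspension libraries.

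The cyclooxygenases behaved differently from each other. Ptgs2, the inducible cyclooxygenase, was the most variable member, ranging from 4.93 CPM in suspension to 1836 CPM in the densest gel. In suspension it was 139, 43.1 and 4.93 CPM in replicates 1 to 3 of the group titled no CCL19 and 115, 12.1 and 6.31 CPM in the group titled plus CCL19. In collagen it was 311, 73.0 and 65.6 CPM at 1.7 mg/ml, 481, 168 and 363 CPM at 2.6 mg/ml, 1113, 107 and 44.3 CPM at 3.5 mg/ml, and 1836, 399 and 183 CPM at 4.4 mg/ml. The ranges overlapped, with 8 of 12 gels above all suspension libraries, but within each replicate number all 4 gels lay above both suspension libraries.

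In collagen over suspension, Ptgs2 had a log2 fold change of 2.78 ± 0.90 (SE, n = 12 and 6, edgeR FDR = 0.0503) and 3.20 ± 0.44 with the block. Within replicates 1, 2 and 3 it was 2.55, 2.72 and 4.38. The call was lost without replicate 2 (FDR = 0.268), without replicate 3 (FDR = 0.117) and without replicate 2 of the suspension group titled plus CCL19 (2.55, FDR = 0.124), although the log2 fold change stayed between 2.55 and 3.31 under all 14 other settings. By density, the log2 fold change over suspension was 1.51 (edgeR FDR = 0.792), 2.68 (FDR = 0.161), 3.00 (FDR = 0.152) and 3.94 ± 1.08 (FDR = 0.0316) from 1.7 to 4.4 mg/ml. With the block all 4 densities passed, at 2.03 (FDR = 0.0611), 3.88 (FDR = 0.000596), 2.72 (FDR = 0.00376) and 4.16 (FDR = 5.08e-05). The call at 4.4 mg/ml was lost without replicate 2 (3.98, FDR = 0.276).

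An increase of Ptgs2 with density among the gels passed the test only under some settings. Over all gels the slope was 0.85 ± 0.46 per mg/ml (SE, edgeR FDR = 0.779; 0.58 with the block, FDR = 0.227), and it was 0.99, 0.74 and 0.16 within replicates 1, 2 and 3. Replicate 1 rose at each of the 3 density steps, whereas in replicates 2 and 3 the 3.5 mg/ml gel lay below the 2.6 mg/ml gel. The 4.4 mg/ml gels exceeded the 1.7 mg/ml gels by 2.43 ± 1.33 on the log2 scale (FDR = 0.757; 2.13 with the block, FDR = 0.12). With the block and without 2.6 mg/ml replicate 3, both passed, at 0.70 per mg/ml (edgeR FDR = 0.0319) and 2.06 (FDR = 0.0265). Without the filter on low counts both passed as well, at 0.84 per mg/ml (edgeR FDR = 2.62e-05) and 2.41 (FDR = 2.19e-05). These estimates were near those of the filtered fit, so the FDRs moved and the estimates did not, for a cause that was not tested. DESeq2 with the block called the 4.4 mg/ml gels higher (2.17, FDR = 0.0556). When suspension was entered as 0 mg/ml, a slope that also holds the step from suspension to collagen, Ptgs2 rose by 0.89 ± 0.21 per mg/ml (edgeR FDR = 0.00676). On that slope 3 of 10 members were called, and 4 with the block, against 21.8% and 33.1% of all genes. Over all 18 libraries, none of the 10 members passed in edgeR with the filter for the density slope or for 4.4 against 1.7 mg/ml, with or without the block, where 0.00722% of all genes were called in each without the block, and 1.45% and 1.73% with it. In both, 0 of the 10 members had an unadjusted p under 0.05 in edgeR without the block.

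Ptgs1, the constitutive cyclooxygenase, did not pass in any comparison. It was 22.3, 33.03 and 28.2 CPM in the suspension group titled no CCL19, 20.7, 98.9 and 32.99 CPM in the group titled plus CCL19, and 18.1 to 58.1 CPM in the 12 gels. The log2 fold change of collagen over suspension was -0.28 ± 0.31 (SE, edgeR FDR = 0.606), and without the library at 98.9 CPM it was 0.17. That library, replicate 2 of the suspension group titled plus CCL19, also had the highest summed level of the 9 neutrophil markers checked (7125 CPM, against 520.9 to 4320 CPM in the other 17 libraries), and the part of those markers in the Ptgs1 level was not tested.

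**Figure D3:**
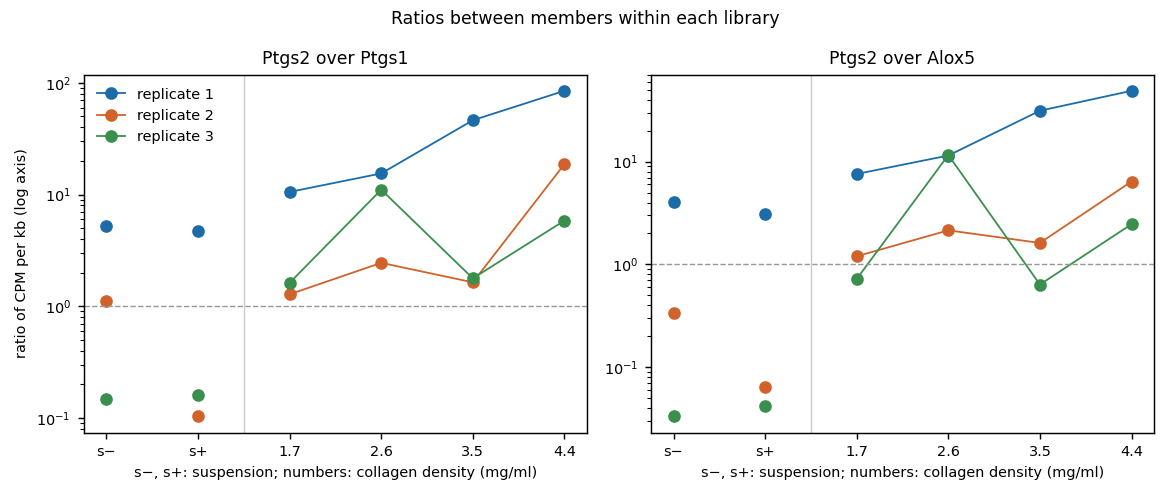
Ratio of Ptgs2 to Ptgs1 (left) and to Alox5 (right) within each library, in CPM per kilobase of exon, on a log axis with a dashed line at equal levels, for the suspension groups titled no CCL19 (s−) and plus CCL19 (s+) and the 4 densities in mg/ml. The 3 gels of 4.4 mg/ml have Ptgs2 to Ptgs1 ratios of 84.8, 18.7 and 5.84, above the suspension maximum of 5.27.

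Per kilobase of exon, the balance of the cyclooxygenases varied with both the replicate and the matrix. The ratio of Ptgs2 to Ptgs1 was 5.27, 1.11 and 0.148 in replicates 1 to 3 of the suspension group titled no CCL19 and 4.73, 0.104 and 0.162 in the group titled plus CCL19. Hence Ptgs1 was the higher of the pair in 3 of 6 suspension libraries. The ratio was 10.55, 1.28 and 1.62 at 1.7 mg/ml, 15.45, 2.45 and 11.1 at 2.6 mg/ml. It was 46.2, 1.64 and 1.78 at 3.5 mg/ml. In the densest gels it was 84.8, 18.7 and 5.84, so that Ptgs2 was the higher in 12 of 12 gels. These ratios are given as a description, without a test of their own.

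The terminal synthases showed large differences between replicates. Ptges, on chromosome 2 from 30889471 to 30929863 (minus strand), encodes the microsomal prostaglandin E synthase that works with Ptgs2. It averaged 186 CPM over the libraries of replicate 1, 122 CPM over those of replicate 2 and 15.1 CPM over those of replicate 3. In suspension it was 115, 15.2 and 2.55 CPM in the group titled no CCL19 and 194, 29.04 and 6.22 CPM in the group titled plus CCL19. It was 196, 29.2 and 20.9 CPM at 1.7 mg/ml, 200.3, 37.3 and 12.95 CPM at 2.6 mg/ml, 199.7, 22.5 and 7.45 CPM at 3.5 mg/ml, and 211.5, 601 and 40.5 CPM at 4.4 mg/ml. The groups therefore overlapped, and the highest value of the series was in 4.4 mg/ml replicate 2.

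Ptges differed between collagen and suspension by a log2 fold change of 0.92 ± 0.94 (SE, edgeR FDR = 0.57), and with the block it was 1.51 ± 0.41 (FDR = 0.0107). Within replicates 1, 2 and 3 it was 0.43, 1.56 and 2.05, and 11 of 12 gels lay above both suspension libraries of their replicate. At 4.4 mg/ml the log2 fold change was 2.29 ± 1.2 (FDR = 0.259), or 3.51 ± 0.55 with the block (FDR = 0.000288). Much of that size rested on 1 library: without 4.4 mg/ml replicate 2 it was 1.11 (FDR = 0.702), or 1.89 with the block (FDR = 0.00508).

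Among the gels, the slope of Ptges was 0.58 per mg/ml (edgeR FDR = 0.957; 0.73 with the block, FDR = 0.154), and the 4.4 mg/ml gels exceeded the 1.7 mg/ml gels by 1.79 on the log2 scale (FDR = 0.941; 2.35 with the block, FDR = 0.108). These values passed under 3 settings each. They were 0.76 (edgeR FDR = 0.0971) and 2.37 (FDR = 0.0724) with the block and without 2.6 mg/ml replicate 3, 0.57 (FDR = 0.0248) and 1.76 (FDR = 0.00733) without the filter, and 0.75 (FDR = 0.076) and 2.42 (FDR = 0.0357) in DESeq2 with the block. Without the filter the estimates stayed near those of the filtered fit and only the FDRs moved, for a cause that was not tested. In the blocked fit that called Ptges in collagen and at 4.4 mg/ml, 4 of 7 macrophage markers given below were higher in each. Of all genes, 34.8% and 31.9% were called there in either direction. The part of those markers in the Ptges calls was not tested.

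Tbxas1, on chromosome 6 from 38875404 to 39084585 (plus strand), encodes thromboxane A synthase. It was 87.2, 33.4 and 23.7 CPM in replicates 1 to 3 of the suspension group titled no CCL19, 114, 80.8 and 28.55 CPM in the group titled plus CCL19, and 21 to 157 CPM in the gels. All 4 gels of replicate 1 lay above both of its suspension libraries, against 1 of 4 in replicate 2 and 2 of 4 in replicate 3. The log2 fold change of collagen over suspension was 0.44 ± 0.48 (SE, edgeR FDR = 0.599). It passed with the block when replicate 2 of suspension plus CCL19 (0.54, FDR = 0.0631) or 2.6 mg/ml replicate 3 (0.44, FDR = 0.0971) was left out. At 4.4 mg/ml it was 0.74 ± 0.65 (FDR = 0.513), and with the block 0.90 ± 0.26 (FDR = 0.0184).

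Markers of macrophages moved with these genes. Tbxas1, Alox5ap, Ptges and Ptgs2 were highest on average in replicate 1 and lowest in replicate 3, and so was the summed level of 7 macrophage markers, at 741.8 to 1402 CPM in replicate 1, 284.4 to 805.5 CPM in replicate 2 and 280.1 to 554.2 CPM in replicate 3. Without the block 0 of the 7 were called in collagen or at 4.4 mg/ml, beside 20.2% and 14.8% of all genes. With it 4 of 7 were higher in each (Adgre1, Cd68, C1qa and C1qb), beside 34.8% and 31.9% of all genes in either direction. In collagen, 15.6% of all genes were called as higher with the block. In the densest gels the sum was 1282, 805.5 and 554.2 CPM in replicates 1 to 3, above the suspension group titled plus CCL19 (999, 608.8 and 308.2 CPM) and the group titled no CCL19 (741.8, 284.4 and 280.1 CPM) in every replicate. The part of macrophage RNA in these levels, and in the blocked calls of Tbxas1, Ptges and Ptgs2, was not tested.

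In the leukotriene branch 1 of 4 members was called in collagen against suspension, and it was lower. In that comparison 20.2% of all genes tested were called, 12.4% as lower. Alox5, on chromosome 6 from 116410077 to 116461178 (minus strand), encodes the lipoxygenase that starts leukotriene synthesis. In suspension it was 30.7, 114 and 133 CPM in replicates 1 to 3 of the group titled no CCL19 and 33.7, 171 and 134 CPM in the group titled plus CCL19. In collagen it was 36.7, 54.6 and 81.5 CPM at 1.7 mg/ml, 37.6, 70.1 and 28.1 CPM at 2.6 mg/ml, 32.0, 59.1 and 62.4 CPM at 3.5 mg/ml and 33.7, 55.9 and 66.9 CPM at 4.4 mg/ml. In replicates 2 and 3 all 4 gels lay below both suspension libraries, whereas in replicate 1 none did.

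For Alox5 the log2 fold change of collagen over suspension was -0.99 ± 0.34 (SE, n = 12 and 6, edgeR FDR = 0.0632). Within replicates 1, 2 and 3 it was 0.12, -1.23 and -1.26, so the decrease did not hold within replicate 1. A test of whether the collagen effect differed between replicates gave Alox5 an unadjusted p of 0.00991 and an FDR of 0.6 in edgeR. No gene passed that test (0 of 13844 in edgeR, with 998 at an unadjusted p under 0.05). The call was lost without replicate 2 (-0.85, FDR = 0.397), without replicate 3 (-0.86, FDR = 0.289) and without replicate 2 of the suspension group titled plus CCL19 (-0.78, FDR = 0.2). No density passed alone. With the block, 2.6 mg/ml (-0.94, FDR = 0.0691) and 4.4 mg/ml (-0.81, FDR = 0.0851) did.

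Eosinophil transcripts were also lower in collagen. Of 8 eosinophil markers, 7 were tested and 7 were lower in collagen (edgeR, FDR under 0.1), beside 12.4% of all genes. The markers' median log2 fold change was -3.05. Their summed level was 14.0 to 168 CPM in the gels and 117.1 to 1339 CPM in suspension, and Prg2, which encodes a granule protein, was 7.4 to 134 CPM against 83.7 to 1080 CPM. In suspension the sum was 117 and 147 CPM in the libraries of replicate 1, 185 and 1339 CPM in those of replicate 2, and 500 and 936 CPM in those of replicate 3. In replicate 1 the markers were also lower in the gels, at 35.9 to 59.6 CPM, without a lower Alox5. The part of eosinophil RNA in the Alox5 difference was not tested. Alox5, Alox15 and Pla2g4a are plotted against the marker sum.

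**Figure D4:**
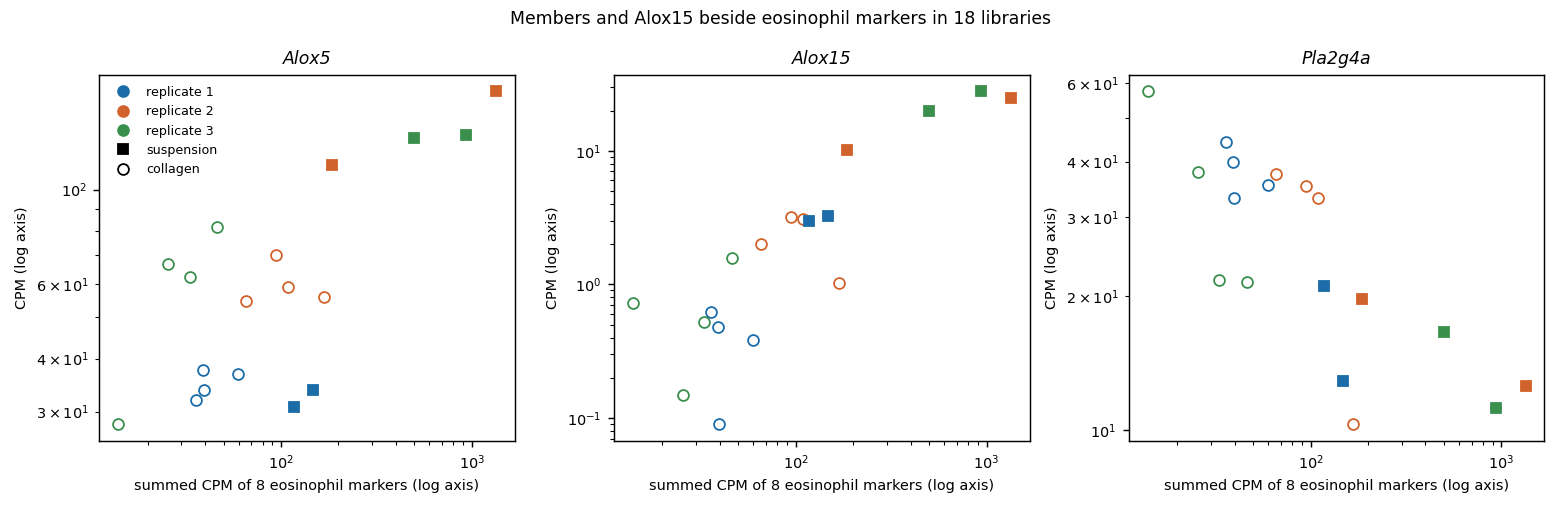
CPM of Alox5, Alox15 and Pla2g4a (log axes) against the summed CPM of 8 eosinophil markers (log axis) in 18 libraries, with filled squares for suspension, open circles for collagen and colors for replicates. Alox15 ranges from 2.97 to 27.9 CPM in suspension and 0.0902 to 3.18 CPM in collagen, while the 6 replicate 1 libraries of Alox5 stay between 30.7 and 37.6 CPM.

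The remaining leukotriene genes did not pass in any comparison of collagen with suspension in edgeR over all 18 libraries, with or without the block. Alox5ap, on chromosome 5 from 149264767 to 149288153 (plus strand), encodes the membrane protein that presents arachidonate to the lipoxygenase. It had the highest median level per kilobase of the 10 members, 71.0 CPM per kilobase over 18 libraries. It was 124, 48.9 and 56.1 CPM in the suspension group titled no CCL19, 179, 203 and 73.0 CPM in the group titled plus CCL19 and 47.5 to 244 CPM in the gels. The ranges overlapped, with 3 gels above all suspension libraries and 1 below all (log2 fold change 0.28 ± 0.39, SE, edgeR FDR = 0.697). At 4.4 mg/ml Alox5ap passed under 1 of 15 alternatives, the block without replicate 2 of suspension plus CCL19 (0.74, edgeR FDR = 0.0851). Lta4h, on chromosome 10 from 93453411 to 93484875 (plus strand), encodes the hydrolase that makes leukotriene B4. It was the steadiest member, at 56.1 to 112 CPM in suspension and 59.2 to 122 CPM in collagen, with a log2 fold change of -0.00 ± 0.19 (SE, edgeR FDR = 0.999) whose sign changed between settings.

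Ltc4s, on chromosome 11 from 50236461 to 50238616 (minus strand), encodes leukotriene C4 synthase and had the fewest reads of the members, with 107 to 433 counts per library. It was 5.22, 6.01 and 9.91 CPM in the suspension group titled no CCL19, 6.29, 28.8 and 17.97 CPM in the group titled plus CCL19, and 5.52 to 21.1 CPM in the gels. Collagen differed from suspension by 0.10 ± 0.33 on the log2 scale (SE, edgeR FDR = 0.884). In all 3 replicates Ltc4s was higher in the library titled plus CCL19 than in that titled no CCL19, by 1.33 ± 0.55 on the log2 scale (unadjusted p = 0.0271, edgeR FDR = 0.761), and no gene passed between the suspension groups.

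Ptger4, on chromosome 15 from 5206661 to 5244187 (minus strand), encodes EP4, a prostaglandin E2 receptor that raises cAMP. It was 63.1, 100.5 and 80.5 CPM in the suspension group titled no CCL19, 45.1, 38.9 and 63.9 CPM in the group titled plus CCL19 and 50.5 to 158 CPM in the gels, of which 1 of 12 lay above all suspension libraries. That gel was 2.6 mg/ml replicate 3. The log2 fold change was 0.28 ± 0.23 (SE, edgeR FDR = 0.455). Exons of Ttc33 on the opposite strand overlap those of Ptger4, and annotated antisense genes overlap exons of Alox5ap, Ltc4s and Tbxas1, as an unclassified gene on the opposite strand does for Ptgs1. Libraries were made with a stranded kit, but whether counting used the strand is not given in the sources used here, so these 5 levels may hold reads of the overlapping genes.

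Set side by side per kilobase of exon, the median levels over 18 libraries were 71.0 CPM per kilobase for Alox5ap, 27.7 for Ptgs2, 14.0 for Alox5, 11.1 for Lta4h, 10.1 for Ptger4, 9.98 for Ltc4s, 8.46 for Ptges, 7.01 for Ptgs1, 6.27 for Tbxas1 and 4.29 for Pla2g4a. The ranges of all neighbors in this order overlapped. Although Pla2g4a was the lowest by median, it was read by 121 to 1835 counts in each library.

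The genes most like Pla2g4a were sought by Pearson's r of log2 CPM over 18 libraries, after centering each replicate number. They were Hspa4 (r = 0.959), Cdkn2b (0.952), Inpp5b (0.938), Gk (0.93) and Fbxo28 (0.925), out of 13843 other genes. The libraries share replicate dates and the step from suspension to collagen, and these values are a description. Among the members, r with Pla2g4a was 0.631 for Ptgs2, which ranked 1483, 0.614 for Ptger4 and -0.594 for Alox5.

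In the wider pathway, a list of 79 further genes of arachidonate metabolism and signaling, 78 were in the matrix and 60 were tested. Of these, 14 changed in collagen, 5 higher and 9 lower (edgeR FDR under 0.1), with a median log2 fold change of 0.07 against 0.00 over all genes. Of all genes tested, 20.2% were called in this comparison, so the list's share lay near that of all genes. With the block 24 of 60 were called, 13 higher and 11 lower, beside 34.8% of all genes. The count fell to 6 without replicate 2 and to 5 without replicate 3, where 4.47% and 10.5% of all genes were called. At 4.4 mg/ml 10 of 60 were called, beside 14.8% of all genes. There, 3 were called without replicate 2 and 4 without replicate 3, beside 0.751% and 6.92% of all genes. The members and listed genes that passed in all gels or at 4.4 mg/ml are drawn as a heatmap.

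Among phospholipases and enzymes that recycle arachidonate, 2 of 14 tested genes were higher in collagen and 4 lower, beside 7.78% and 12.4% of all genes. The risers were Acsl1 and Acsl4, acyl-CoA synthetases that activate long-chain fatty acids, the latter with a preference for arachidonate. Acsl4 was 43.5 to 139 CPM in suspension and 94.2 to 264 CPM in collagen, a log2 fold change of 0.99 ± 0.24 (SE, edgeR FDR = 0.0125). Acsl1 went from 60.7 to 161 CPM in suspension to 115 to 275 CPM in collagen (0.97 ± 0.19, edgeR FDR = 0.00407). Lpcat1, an acyltransferase that rebuilds phosphatidylcholine, fell by 0.93 on the log2 scale (edgeR FDR = 0.0137), from 31.3 to 57.9 CPM in suspension to 10.5 to 41.7 CPM in collagen.

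Of 6 tested prostanoid synthases and inactivating enzymes, 1 was lower in collagen, beside 12.4% of all genes. It was Ptgr2, a prostaglandin reductase, at 7.15 to 16.5 CPM in suspension and 2.85 to 10.1 CPM in collagen (log2 fold change -0.74, edgeR FDR = 0.0506). Of 11 tested lipoxygenases and leukotriene enzymes, 2 were lower, beside the same 12.4% of all genes. Alox15, a lipoxygenase that eosinophils are known to express, was 2.97 and 3.27 CPM in suspension in replicate 1, 10.1 and 25.03 CPM in replicate 2 and 20 and 27.9 CPM in replicate 3, against 0.0902 to 3.18 CPM in the gels. Its log2 fold change was -3.83 ± 0.60 (SE, edgeR FDR = 0.00103), in libraries whose eosinophil markers were lower as well, as given above. Alox8 was at 2 to 32 counts in suspension and 0 to 12 in collagen (-1.92 ± 0.75, edgeR FDR = 0.0999).

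Neither of the 2 transporters tested passed. Abcc1, which exports leukotriene C4, was 102 to 457 CPM in suspension and 79.1 to 313 CPM in collagen (log2 fold change -0.13 ± 0.36, edgeR FDR = 0.856). Of 10 tested receptors, 1 was higher and 1 lower, beside 7.78% and 12.4% of all genes. Ptger2, the EP2 receptor that also raises cAMP, was 2.26 to 11.7 CPM in suspension and 3.50 to 41.2 CPM in collagen (1.49 ± 0.53, edgeR FDR = 0.0745). Ltb4r2, a leukotriene B4 receptor, was at 4 to 40 counts in suspension and 0 to 18 in collagen (-2.0 ± 0.57, edgeR FDR = 0.0292). Of 7 regulators of cytosolic phospholipase A2, 1 was lower, beside 12.4% of all genes. It was Mapk14, which encodes the p38 alpha kinase, at 95 to 136 CPM in suspension and 53.8 to 120 CPM in collagen (-0.51 ± 0.17, edgeR FDR = 0.0579).

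Among genes known to respond to cAMP, 2 of 10 passed in all gels together, both higher, beside 20.2% of all genes (7.78% as higher). They were Crem, a cAMP-responsive transcription factor (log2 fold change 1.15 ± 0.23, edgeR FDR = 0.00467), and Nr4a2, an early-response nuclear receptor (1.60 ± 0.43, edgeR FDR = 0.022). At 4.4 mg/ml 4 of 10 were higher and 0 lower, against 14.8% of all genes called in either direction, 6.55% as higher and 8.29% as lower. Nr4a2 was 3.25 to 14.9 CPM in suspension, 9.41 to 16.6 CPM at 1.7 mg/ml and 22.7 to 125 CPM at 4.4 mg/ml, and the 4.4 mg/ml gels lay above all suspension libraries (3.35 ± 0.55, edgeR FDR = 0.00223). Crem was 60.1 to 101 CPM in suspension and 127 to 261 CPM at 4.4 mg/ml (1.61 ± 0.30, edgeR FDR = 0.00429). The other two were Nr4a1 and Dusp1. These genes also respond to many other stimuli, and 0 of 10 passed for the density slope or for 4.4 against 1.7 mg/ml without the block. With the block 5 of 10 were higher in all gels and 8 at 4.4 mg/ml, beside 34.8% and 31.9% of all genes in either direction. In all gels 15.6% of all genes were called as higher with the block. On the density slope 2 of 10 were higher with the block, and 3 for 4.4 against 1.7 mg/ml (1.45% and 1.73% of all genes in either direction). DESeq2 without the block called 1 in each, beside 0.918% and 1.2% of all genes.

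**Figure D5:**
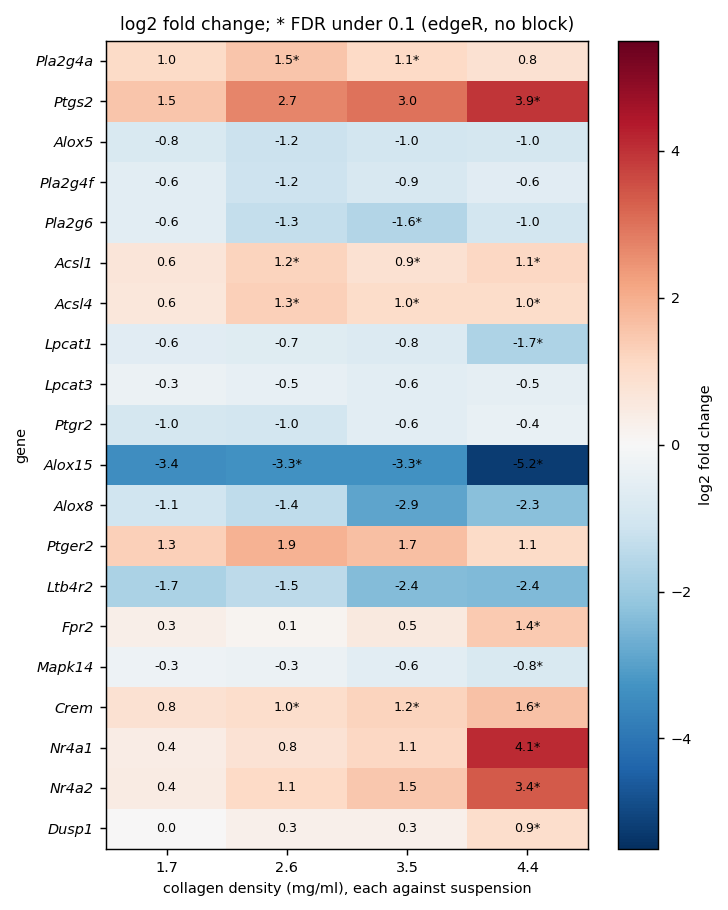
Log2 fold change of each collagen density over suspension for the 20 members and listed pathway genes that passed in all gels or at 4.4 mg/ml, with an asterisk for an FDR under 0.1 (edgeR, without the block). Ptgs2 reads 3.9 at 4.4 mg/ml and Alox15 reads -5.2, and 1.7 mg/ml carries no asterisk.

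At 4.4 mg/ml the members themselves gave 1 call of 10, Ptgs2, and 5 with the block, against 14.8% and 31.9% of all genes. At 2.6 mg/ml the calls were 1 and 3 of 10 (7.87% and 21.6% of all genes), at 3.5 mg/ml 1 and 2 (4.9% and 18.4%) and at 1.7 mg/ml 0 and 1 (0.0361% and 2.91%). At 1.7 mg/ml, 1 member had an unadjusted p under 0.05, Pla2g4a. A test for any difference among the 6 groups called 0 members in edgeR, 1 in DESeq2 and 4 in edgeR with the block (4.9%, 14.6% and 24.3% of all genes), with 2 members at an unadjusted p under 0.05.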

How the data were processed

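Poly(A) RNA libraries (TruSeq Stranded mRNA, single-end reads) of the 18 samples were sequenced by the authors, who aligned reads to GRCm38 with STAR 2.7.0f. The deposited values are raw counts per Ensembl gene in 1 matrix. The study's methods name RSEM for TPM values, and which tool made the deposited counts, and with which strand setting, is not given in the sources used here. Samples were grouped by their titles.

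Counts were tested as deposited in edgeR 4.0.16 (R 4.3.3): TMM scaling, filterByExpr, 1 quasi-likelihood fit of 6 group means over all 18 libraries (13844 genes kept) and Benjamini-Hochberg adjustment at 0.1. Levels are TMM-scaled CPM, and per-kilobase levels divide by the union of exons in GENCODE M21. Standard errors are the log2 fold change over the root of F. Biological variation was 49%, or 33.1% with the block. Same-numbered libraries shared a date and lane by their names, and their deviations from group means correlated at 0.434 on average (lowest -0.149). For pairs that differed in both number and group the mean was -0.214. Deviations cancel within each group, so this negative value follows from the positive one and is not separate evidence. Of 153 library pairs, 0 were identical.

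Alternatives were the replicate block, DESeq2 1.42.0 (the test the study's methods name), DESeq2 size factors, no filter, FDR 0.05, only the groups compared, and leaving out libraries. Leaving out single libraries and the test of the collagen effect between replicates were chosen after seeing the data. The members and lists were chosen with earlier results of these data known. All 10 members are named, and from each role group of the wider list at most 3 genes with the lowest FDR past 0.1 in collagen against suspension, or the most abundant gene where none passed. Nr4a1 and Dusp1 were named after their values were seen. Marker lists for mast cells and basophils, megakaryocytes, B cells, T and NK cells and fibroblasts were also measured. Scripts were tested on simulated data.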

Additional observations from a re-analysis of the deposited data

Results flagged for a closer look

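Ptgs1 in the 6 suspension libraries had a value far from the others: 98.9 CPM in replicate 2 of the group titled plus CCL19, against 20.7 to 33.03 CPM in the other 5. On the log2 scale, its gap to the nearest library was 0.702 of the whole range. The suspension libraries were checked in this way for all 10 members, and chance marks about 1 in 20 such groups. The summed neutrophil markers were also highest in that library, at 7125 CPM, and their part in the Ptgs1 level was not tested.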

How the results depend on the processing

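Leaving out replicates or single libraries gave 1 to 3 called members for collagen against suspension (4.47% to 20.6% of all genes). The slope with suspension as 0 mg/ml also gave 1 to 3 (12.1% to 23.8%). There were 0 to 3 at 2.6 mg/ml (0% to 9.6%) and 0 to 1 at 3.5 mg/ml (0% to 5.72%). At 4.4 mg/ml there were 0 to 2 (0.751% to 16.2%), and 0 to 2 for any difference (0% to 4.26%). From the lowest to the highest density, the replicate block gave 1, 3, 2 and 5 called members, and 4 for any difference, and it changed no other count by over 1.5 times. With the block and without 4.4 mg/ml replicate 2 these were 2, 4, 3, 3 and 3. With the block and without replicate 2 of suspension plus CCL19 they were 1, 2, 2, 5 and 4. Collagen against suspension then gave 5 (29.1% of all genes). With the block and without 2.6 mg/ml replicate 3 they were 2, 2, 3, 5 and 5. There were then 5 for collagen against suspension (36.5% of all genes) and 5 for the slope with suspension as 0 mg/ml (37.3%). The density slope and 4.4 against 1.7 mg/ml gave 2 each in that fit, Ptgs2 and Ptges in both. DESeq2 gave 2 at 3.5 mg/ml, 2 at 4.4 mg/ml and 1 for any difference, as DESeq2 size factors did for the last (1). DESeq2 with the block gave 1 for the density slope (Ptges), 2 for 4.4 against 1.7 mg/ml (Ptgs2 and Ptges), 2, 3, 3 and 5 by density, 4 for any difference and 5 for the slope from 0 mg/ml. Without the filter there were 2, 2, 1, 3, 2, 3 and 4 in the order slope, 4.4 against 1.7 mg/ml, 4 densities and any difference, the first pair being Ptgs2 and Ptges in both. The share of all genes called moved with these settings. From 1.7 to 3.5 mg/ml it was 5.29%, 25.5% and 22% with the block and no 4.4 mg/ml replicate 2. With the block it was 3.48%, 16.4% and 15.6% without suspension plus CCL19 replicate 2, and 5.24%, 7.38% and 22.1% without 2.6 mg/ml replicate 3. It was 8.57%, 26.5% and 23.1% in DESeq2 with the block, 0.264%, 4.11% and 2.36% without the filter, and 10.5% at 3.5 mg/ml in DESeq2. On the slope from 0 mg/ml it was 37.2% in DESeq2 with the block. For 4.4 mg/ml over suspension it was 25.1%, 29% and 35.8% in the 3 blocked fits with a library left out, in the order above, 20.3% in DESeq2, 36.3% in DESeq2 with the block and 7.98% without the filter. For the density slope it was 0.313%, 0.935%, 4.27%, 0.918%, 6.22% and 0.465% in that order, for 4.4 against 1.7 mg/ml 0.299%, 1.23%, 4.38%, 1.2%, 6.63% and 0.505%, and for any difference 24.7%, 15.9%, 25.7%, 14.6%, 38.3% and 6.67%. At FDR 0.05 there was 1 for collagen against suspension, 1 for the slope from 0 mg/ml and 0 at 3.5 mg/ml. The cause of these shifts was not tested. Pla2g4a kept its call in collagen under 14 of 14 settings, Ptgs2 and Alox5 under 11 each, Ptges gained one under 6 and Tbxas1 under 2.

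Values near 0 changed sign. Lta4h in collagen was 0.0018 with the block, 0.0313 under DESeq2 size factors, 0.0314 under DESeq2 and 0.0342 under DESeq2 with the block, and with the block it was 0.0437 without 4.4 mg/ml replicate 2, 0.0575 without suspension plus CCL19 replicate 2 and 0.0579 without 2.6 mg/ml replicate 3. Without the block it spanned -0.0816 to 0.15 over leave-outs. Ptgs1 ranged from -0.34 to 0.17 (0.0268 with the block and no suspension plus CCL19 replicate 2), and Ltc4s from -0.0131 to 0.36. Density slopes ranged over leave-outs from -0.24 to 0.0436 for Pla2g4a, -0.0506 to 0.0011 for Alox5, -0.13 to 0.31 for Alox5ap, -0.0801 to 0.23 for Ltc4s and -0.0318 to 0.17 for Ptger4. With the block and no 4.4 mg/ml replicate 2 they were 0.0185, 0.0084, -0.0298 and -0.065 for the first 4, and with suspension as 0 mg/ml that of Pla2g4a was 0.25. In the densest gels over suspension Ltc4s spanned -0.12 to 0.57 (-0.0639 with the block and that library out). For 4.4 against 1.7 mg/ml, Pla2g4a ranged from -0.75 to 0.31 (0.21 in that blocked fit), Alox5ap from -0.37 to 0.96 (-0.0706) and Ltc4s from -0.61 to 0.31, with 0.0530 under DESeq2, 0.0527 under its size factors and 0.0167 with only the groups compared. Every member had 44 counts or more in every library, and the variation between replicates was 49%.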
